A study of Mus musculus with 4 samples.

Results

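Type I interferon-stimulated genes were followed as a list of 47 named mouse genes in RNA-seq read counts from WT and Yap KO cells, before and after stimulation. The members were found by matching the gene identifiers of the count tables to gene symbols of GENCODE M21, and each of the 47 matched exactly 1 of 50686 identifiers. All 47 passed the filter on low counts, as did 15394 genes in all. There were 4 libraries: unstimulated WT, unstimulated Yap KO, stimulated WT and stimulated Yap KO, with 1 library for each. All 4 came from cultured cells of mouse spleen and lymph node. The titles of the stimulated libraries carry the number 24 with no unit. The stimulus, the sorted cell type, the strain, the age and number of the animals, and how Yap was deleted were not given in the sources used here. Since each genotype has 1 source per state, the genotype and the source of the cells cannot be told apart. With 1 library per group, no value below has a standard deviation.

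Between 19935523 and 25419974 reads per library were assigned to genes. Yap1, the gene of the genotype label, had 1 and 3 reads in the unstimulated and stimulated WT libraries and 0 and 2 reads in the Yap KO ones, all at or under a floor of 3 reads, so the labels could not be checked from it. T cell genes and both chains of CD8 were read at high levels in all 4 libraries, and Cd4 had at most 3 reads.

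Type I interferons, among them the interferon alpha proteins and interferon beta, bind the receptor made of IFNAR1 and IFNAR2. The kinases JAK1 and TYK2 then phosphorylate transcription factors of the STAT family, among them STAT2, which joins IRF9 in the complex ISGF3. This complex binds a DNA element called the interferon-stimulated response element (ISRE) in front of genes whose products sense viral RNA, block translation, degrade RNA or trap virus particles. Lymphocytes also carry a low tonic level of such transcripts without infection.

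Promoter sequence from RefSeq (GRCm38.p6) was at hand for 36 of the 47 members, as windows of 300 bases that run from 250 bases before a transcription start to 50 bases after it. The letters GAAANNGAA, the core that the ISRE shares with the sites of interferon regulatory factors, were searched on both strands. The core stood in a window of 21 of the 36 members, which is 58.33%. It stood in 9.761% of all 27025 genes with such a window, and in 8.56% of all 32851 windows. In 13 members a single window held at least 2 cores. TTCNNNGAA, the core of the element through which interferon gamma acts, stood in 7 of the 36 members (19.44%) and in 9.554% of all genes. Both kinds of core can overlap, as they do in front of Bst2. A match describes letters only and says nothing of binding in these cells.

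The stretches around these cores are shown because the members differ in how many cores they carry and how closely the cores are spaced. Trim30a and Slfn8 have high levels among the members with a core. Rsad2 and Cmpk2 are divergent neighbours, and Dtx3l overlaps Parp9 head to head. Isg15, Ifit1, Ifit3, Ifit3b and Bst2 were chosen after the search. Each stretch is read 5′ to 3′ on the gene's own strand, holds no annotated exon, and has the core in capitals, written as GAAANNGAA or as its reverse complement TTCNNTTTC. Cmpk2 and Dtx3l have no core in their stretch and so no capitals. The core of Ddx58 lies in its first exon and is not shown.
Isg15 (chr4:156200856-156200916, minus strand): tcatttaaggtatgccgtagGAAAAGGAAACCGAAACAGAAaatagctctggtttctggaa
Ifit1 (chr19:34640760-34640833, plus strand): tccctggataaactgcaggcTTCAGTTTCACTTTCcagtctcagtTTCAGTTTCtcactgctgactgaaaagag
Ifit3 (chr19:34583354-34583455, plus strand): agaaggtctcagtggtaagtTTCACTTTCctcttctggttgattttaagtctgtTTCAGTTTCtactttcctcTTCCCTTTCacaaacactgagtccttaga
Ifit3b (chr19:34607750-34607851, plus strand): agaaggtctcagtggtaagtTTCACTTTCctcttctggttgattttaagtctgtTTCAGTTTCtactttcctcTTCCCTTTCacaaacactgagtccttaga
Bst2 (chr8:71537568-71537622, minus strand): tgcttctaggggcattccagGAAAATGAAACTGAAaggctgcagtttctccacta
Rsad2 (chr12:26456543-26456591, minus strand): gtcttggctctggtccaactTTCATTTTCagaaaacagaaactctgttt
Slfn8 (chr11:83020829-83020877, minus strand): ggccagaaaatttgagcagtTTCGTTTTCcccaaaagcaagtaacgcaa
Trim30a (chr7:104465200-104465248, minus strand): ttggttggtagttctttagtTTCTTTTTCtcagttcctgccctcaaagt
Dtx3l (chr16:35939207-35939277, minus strand): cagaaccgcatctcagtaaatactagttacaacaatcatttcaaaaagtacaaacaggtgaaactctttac
Cmpk2 (chr12:26468965-26469203, plus strand): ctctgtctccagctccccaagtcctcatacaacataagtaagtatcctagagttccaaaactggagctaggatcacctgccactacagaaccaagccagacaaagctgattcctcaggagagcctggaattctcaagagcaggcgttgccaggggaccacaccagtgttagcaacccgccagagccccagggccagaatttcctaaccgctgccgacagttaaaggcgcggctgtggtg

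Isg15 carries 3 overlapping cores in a row, at 78, 72 and 66 bases before its start. Ifit1 also has 3 cores, of which a pair overlaps and the other stands apart. The stretches of the neighbouring genes Ifit3 and Ifit3b are the same in 102 of 102 bases. Bst2 has 2 overlapping cores.

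The members together took 0.888% of the reads in genes in unstimulated WT cells (196082 reads) and 0.684% in unstimulated Yap KO cells (173800 reads). After stimulation they took 0.299% in WT (62627 reads) and 0.165% in Yap KO cells (32971 reads). Ly6e, a GPI-anchored surface protein of the Ly6 family, was the member with the most reads in each of the 4 libraries. The 5 highest members took 37.6 to 47.4% of the members' reads. The number of members under 100 reads was 1, 1, 9 and 14 in the same order of libraries, so the low ones are counted with less precision after stimulation. Reads are uncertain for 10 members with exons opposite another gene, Dhx58, Dtx3l, Eif2ak2, Ifi35, Oasl1, Parp9, Rnf213, Slfn5, Trafd1 and Usp18. They are also uncertain for 6 that share over 20% of their 31-base words with other genes, Ifit3, Ifit3b, Oas1a, Oas1g, Phf11b and Slfn8. The lowest count was 1 read, of Ifit3b in Yap KO stimulated cells.

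On a scale corrected for exon length and library size, as CPM (the count relative to the TMM-scaled library size) divided by the kilobases of exon, which allows genes to be compared, the mean level over the 4 libraries ran from 219 for Ly6e and 199.7 for Ifi27l2a, which encodes a small interferon-induced protein, to 0.335 for Oas1g. Bst2 (mean level 99.0), Epsti1 (73.7) and Sp100 (65.0) followed the first pair. Among genes with known antiviral activity, Isg15 stood at a mean level of 35.2, Ifit1 at 35.0, Mx1 at 8.09 and Rsad2 at 5.08.

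**Figure D1:**
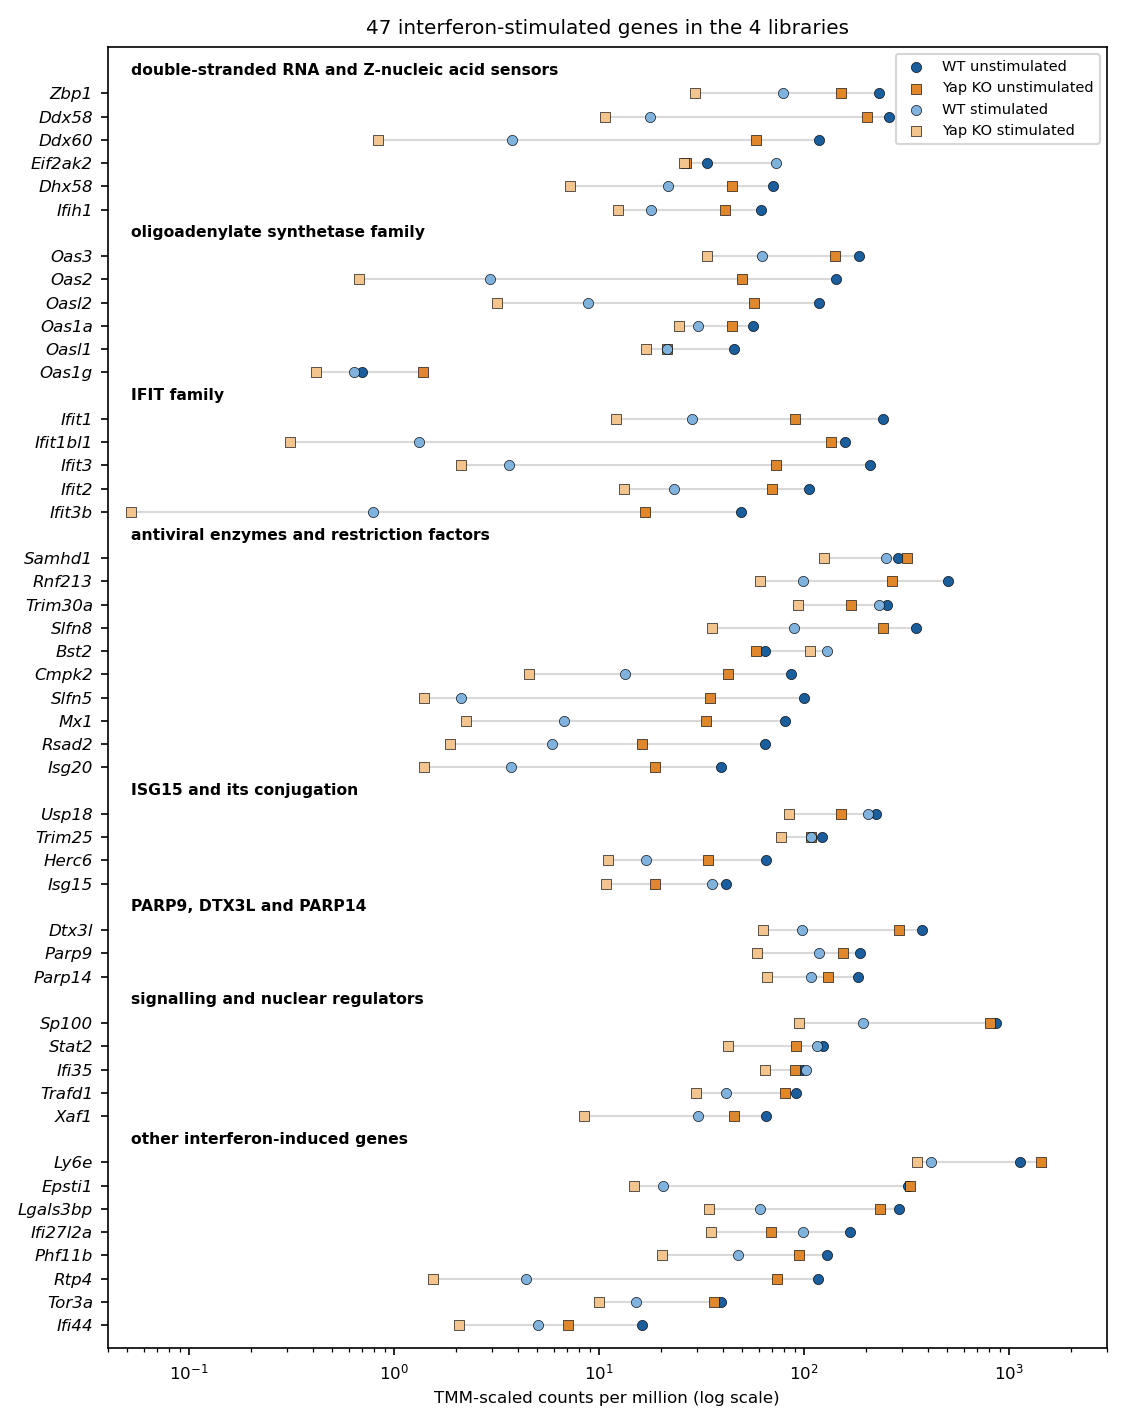
Level of each of the 47 genes in the 4 libraries, in TMM-scaled CPM on a log axis, grouped by role. Circles are WT, squares are Yap KO, dark symbols are unstimulated and pale symbols are stimulated. The pale squares (Yap KO stimulated) are the lowest of the 4 in 46 of 47 rows, all but that of Bst2.

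Of the 4 levels of a member, as CPM after TMM scaling, the lowest was in Yap KO stimulated cells in 46 of 47 members, against 27.8% of all genes tested. The highest was in WT unstimulated cells in 40 members, against 25.1% of all genes. The full order from WT unstimulated through Yap KO unstimulated and WT stimulated to Yap KO stimulated held in 34 members, against 12.5% of all genes. The plot of levels by role shows this order as dark circle, dark square, pale circle and pale square from right to left. The 13 members outside the order were Bst2, Eif2ak2, Epsti1, Ifi27l2a, Ifi35, Isg15, Ly6e, Oas1g, Oasl1, Samhd1, Stat2, Trim30a and Usp18.

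The first comparison asked how the members differed between stimulated and unstimulated cells. Antiviral genes of every role were lower in the stimulated libraries: 42 of the 47 members fell, 1 rose and 4 did not pass the test, so that 43 changed. The state was tested in edgeR (quasi-likelihood F test) over all 15394 genes, with an additive genotype term and Benjamini-Hochberg adjusted p of at most 0.05. Of all genes tested, 32.5% were called lower and 32.1% higher, 64.6% in all. The members' median log2 ratio, stimulated over unstimulated, was -1.70 in WT and -2.21 in Yap KO cells, beside -0.02 and -0.05 over all genes. In single genotypes, levels at least 2-fold lower after stimulation, with an interval below 0, were found for 33 members in WT (24.2% of all genes) and 36 in Yap KO cells (25.4% of all genes). At least 4-fold falls, by the fitted coefficient, were called in 22 members and in 11.7% of all genes. Less RNA per cell and fewer cells that carry it cannot be told apart in these bulk libraries.

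In 38 members both stimulated libraries lay below both unstimulated libraries, against 41.8% of all genes. The test asks whether the state coefficient, fitted over both genotypes, differs from 0. The 1 residual degree of freedom of the fit holds the difference between the genotypes' responses, which thus counts as error. A call does not mean that the change was alike in both genotypes. Samhd1, for example, was called lower with log2 ratios of -0.20 in WT and -1.34 in Yap KO cells. With the genotype left out of the model, 34 members were called lower, and 8 of the 42 lost their call: Ifi27l2a, Isg15, Oasl1, Samhd1, Stat2, Trim30a, Usp18 and Xaf1.

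The sensors of double-stranded RNA and Z-form nucleic acid fell in 5 of 6 members. Ddx58, which encodes the RNA sensor RIG-I, had 5914 reads in unstimulated WT and 5254 in unstimulated Yap KO cells, then 361 in stimulated WT and 206 in stimulated Yap KO cells. Both stimulated libraries were far below both unstimulated ones. The fitted log2 change was -4.05 ± 0.16 (standard error derived from the F statistic, adjusted p = 3.96e-08). Ddx60, a helicase that acts beside RIG-I, had 2715, 1506, 77 and 16 reads in the same order of libraries, a log2 change of -5.36 ± 0.25 (adjusted p = 1.12e-07).

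Zbp1, a sensor of Z-form nucleic acid that can start necroptosis, had 5298, 3903, 1616 and 567 reads, a log2 change of -1.94 ± 0.19 (adjusted p = 1.15e-05). Ifih1 (MDA5) and Dhx58 (LGP2), the other RIG-I-like receptors, changed by -1.75 ± 0.15 and -2.14 ± 0.22. Eif2ak2, which encodes the translation-blocking kinase PKR, did not pass the test (log2 change 0.56 ± 0.24, adjusted p = 0.0656). It had 769 and 687 reads unstimulated and 1488 and 499 reads stimulated, in WT and Yap KO, so the WT stimulated library alone stood high. Without the filter on low counts Eif2ak2 was called higher.

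Oligoadenylate synthetases make the second messenger that switches on RNase L. Of the 6 members of this family, 5 fell. Oas2 had 3255, 1285, 60 and 13 reads in the order given, a log2 change of -5.78 ± 0.21 (adjusted p = 2.81e-08). The 4 libraries of Oas2 are spread widely. Both stimulated ones lay below both unstimulated ones, which also held in 41.8% of all genes tested. Oas3 had 4223, 3678, 1275 and 644 reads, a log2 change of -1.82 ± 0.15 (adjusted p = 4.94e-06).

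Oasl2, an oligoadenylate synthetase-like gene, fell by 3.92 ± 0.18 on the log2 scale (2713, 1471, 181 and 61 reads). Its neighbour Oasl1 lies 11005 bases away on chromosome 5 and fell by 0.72 ± 0.20, with 1042, 553, 436 and 325 reads. Oas1a fell by 0.86 ± 0.14. Oas1g had 16, 36, 13 and 8 reads and did not pass the test (adjusted p = 0.268). Of the 31-base words of the Oas1g transcripts 55.1% also stand in other genes, most of all in Oas1a. Reads of this pair are thus uncertain, and summed the pair had 1301, 1187, 635 and 483 reads.

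The IFIT proteins bind viral RNA and block its translation. All 5 measured members fell, and their median log2 ratios, -5.81 in WT and -5.04 in Yap KO, were the lowest of the 8 role groups in both genotypes. Ifit1, which binds RNA that lacks the cap methylation of the host, had 5534, 2329, 582 and 234 reads, a log2 change of -2.99 ± 0.14 (adjusted p = 1.17e-07). Ifit1bl1, a related gene in the same cluster, had 3625, 3497, 27 and 6 reads, a log2 change of -7.49 ± 0.30 (adjusted p = 4.52e-08), and this was the lowest coefficient of the 47 members. The unstimulated levels of Ifit1bl1 were 158 and 135 CPM, whereas its stimulated levels were 1.32 and 0.311 CPM.

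Ifit3 had 4793, 1891, 74 and 41 reads and fell by 5.53 ± 0.21. Ifit3b had 1124, 432, 16 and 1 reads and fell by 6.35 ± 0.35, a value that rests on few stimulated reads. Ifit3 shares 61.8% of its 31-base words with other genes, most of all with Ifit3b. The split between Ifit3 and Ifit3b is thus uncertain, and their sums of 5917, 2323, 90 and 42 reads show the same order of libraries. Ifit2 fell by 2.30 ± 0.15. The 5 genes lie together on chromosome 19 between 34550694 and 34650009 (GRCm38).

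Among 10 antiviral enzymes and restriction factors, 9 fell and 1 rose. Rsad2, which encodes the antiviral enzyme viperin, had 1471, 418, 120 and 36 reads, a log2 change of -3.31 ± 0.20 (adjusted p = 6.01e-07). Cmpk2, a mitochondrial nucleotide kinase, lies 12751 bases from Rsad2 on the opposite strand of chromosome 12. It had 1977, 1097, 272 and 88 reads and changed by -2.93 ± 0.18, close to Rsad2.

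Mx1, a dynamin-like GTPase that traps viral nucleocapsids, had 1837, 864, 138 and 43 reads (log2 change -3.70 ± 0.19). Isg20, an RNA exonuclease, had 896, 488, 76 and 27 reads (-3.54 ± 0.22). Slfn5, a member of the Schlafen family, had 2291, 905, 43 and 27 reads (-5.17 ± 0.25), while Slfn8, 37317 bases away, had 8037, 6308, 1826 and 688 reads (-2.36 ± 0.19). In each of these 4 genes both stimulated libraries lay below both unstimulated ones, as they did in 41.8% of all genes tested.

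Rnf213, a very large ubiquitin ligase, had 11536, 6921, 2008 and 1176 reads and fell by 2.24 ± 0.13. Samhd1, which depletes deoxynucleotides, had 6590, 8235, 5124 and 2411 reads and fell by 0.77 ± 0.23 (adjusted p = 0.0137). Trim30a fell by 0.49 ± 0.17. For Samhd1 and Trim30a the WT ratio was small (log2 -0.20 and -0.14) and the call rests mostly on the Yap KO libraries (-1.34 and -0.86).

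Bst2, which encodes tetherin, a protein that holds budding virus particles at the cell surface, was the member that rose. It had 1469 (WT) and 1504 (Yap KO) reads unstimulated, and 2633 (WT) and 2052 (Yap KO) reads stimulated. Both stimulated libraries stood above both unstimulated ones, and the log2 change was 0.94 ± 0.13 (adjusted p = 0.000120). No other member had both stimulated libraries above both unstimulated libraries, against 40.4% of all genes.

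ISG15 is a ubiquitin-like protein that is attached to other proteins during the interferon response. Of the 4 genes of this group, 3 fell, and the median log2 ratio over all 4 was -0.20 in WT and -0.82 in Yap KO cells. Isg15 itself had 948, 488, 724 and 209 reads, a log2 change of -0.49 ± 0.19 (adjusted p = 0.0399), and DESeq2's Wald test did not call it. Its WT stimulated level lay above its Yap KO unstimulated level.

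Usp18, the protease that removes ISG15 and also damps receptor signalling, had 5140, 3938, 4193 and 1632 reads (log2 change -0.48 ± 0.17, adjusted p = 0.0301). Here again WT stimulated stood above Yap KO unstimulated cells, at 205 against 152 CPM. Herc6, the main ISG15 ligase of the mouse, fell by 1.78 ± 0.17, with log2 ratios of -1.94 in WT and -1.61 in Yap KO cells. Trim25, a ubiquitin ligase of the RIG-I pathway, had 2795, 2813, 2202 and 1493 reads and narrowly missed the threshold (log2 change -0.33 ± 0.13, adjusted p = 0.0506). It was called lower with libraries scaled by their total reads in genes.

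Parp9 and Dtx3l encode partners in a ubiquitin ligase complex, and Parp14 is a related ADP-ribosyltransferase. All 3 fell. Dtx3l had 8618, 7564, 1995 and 1212 reads (log2 change -2.08 ± 0.13, adjusted p = 8.15e-07). Parp9 had 4289, 4011, 2422 and 1137 reads (-1.02 ± 0.17, adjusted p = 0.000544). Parp14 fell by 0.87 ± 0.13. Exons of Dtx3l and Parp9 overlap on opposite strands, and the strand setting of the counting is not known, so their reads cannot be fully told apart.

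Among signalling and nuclear regulators 4 of 5 fell. Sp100, a component of nuclear bodies with antiviral activity, had 19820, 21038, 3965 and 1816 reads (log2 change -2.63 ± 0.21, adjusted p = 3.36e-06). Stat2, the ISGF3 subunit, had 2841, 2356, 2355 and 824 reads (-0.59 ± 0.20, adjusted p = 0.0293). For Stat2 the Yap KO stimulated library was the low one, and the WT ratio was -0.10.

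Xaf1, a pro-apoptotic gene, had 1495, 1181, 620 and 163 reads and fell by 1.72 ± 0.27. Trafd1, which restrains innate signalling, fell by 1.29 ± 0.14. Ifi35 had 2229, 2332, 2086 and 1240 reads and did not pass the test (log2 change -0.20 ± 0.15, adjusted p = 0.268).

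The other 8 interferon-induced genes all fell. Ly6e had 25724, 37045, 8440 and 6842 reads (log2 change -1.73 ± 0.16, adjusted p = 8.13e-06). Epsti1, named for epithelial and stromal interaction, had 7342, 8508, 418 and 285 reads (-4.21 ± 0.17, adjusted p = 4.65e-08). Both genes had their highest count in Yap KO unstimulated cells. Rtp4, Lgals3bp, Phf11b, Ifi44, Tor3a and Ifi27l2a changed by -5.06, -2.51, -1.82, -1.72, -1.61 and -0.86.

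**Figure D2:**
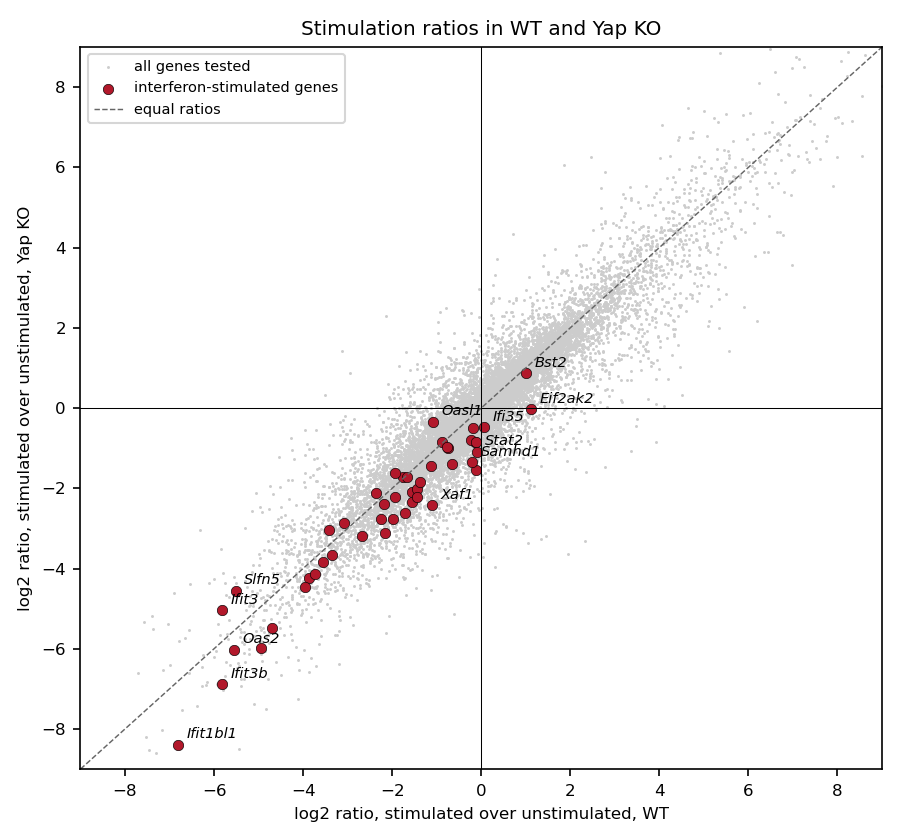
Log2 ratio of stimulated over unstimulated level in WT cells (horizontal axis) and Yap KO cells (vertical axis), for all genes tested (grey, of which 10 fall outside the axes) and the 47 interferon-stimulated genes (red). Most red points lie below 0 on both axes, Bst2 lies above 0 on both, and 38 of 47 lie below the dashed line of equal ratios.

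The size of the fall differed widely between members, and members ranked alike in both genotypes. A coefficient of -5 or lower was found for 7 members, Ddx60, Ifit1bl1, Ifit3, Ifit3b, Oas2, Rtp4 and Slfn5, whereas 9 called members lay between -1 and 0, Ifi27l2a, Isg15, Oas1a, Oasl1, Parp14, Samhd1, Stat2, Trim30a and Usp18. Across the 47 members the stimulation ratios in WT and Yap KO had a Pearson r of 0.957 and a Spearman rho of 0.944. This is a description across genes that share libraries and depth, not across replicates. The scatter of stimulation ratios shows the members strung out along the line of equal ratios and mostly under it.

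The second comparison asked how the members differed between Yap KO and WT cells in each state. The members were lower in Yap KO cells in both states, from enzymes such as viperin to Isg15 itself, and the ratios were lower among stimulated cells. The log2 ratio Yap KO over WT was below 0 in both states in 43 of 47 members, against 26.0% of all genes, and in no member was it above 0 in both, against 30.3%. Its median was -0.57 unstimulated and -1.04 stimulated, beside 0.03 and -0.00073 over all genes. Each of these ratios sets 1 library against 1 library, so there is no test, and the 95% intervals (Clopper-Pearson) cover counting error only.

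Levels at least 2-fold lower in Yap KO cells, with an interval below 0 on the log2 scale, were found for 15 members in unstimulated cells and 26 in stimulated cells, against 3.26% and 4.42% of all genes. None was at least 2-fold higher in either state, against 4.10% and 3.08% of all genes. Both states met the 2-fold rule in 12 members, against 0.883% of all genes. These 12 were Cmpk2, Ddx60, Ifi27l2a, Ifi44, Ifit1, Ifit3b, Isg15, Isg20, Mx1, Oas2, Oasl2 and Rsad2. Another 3, Ifit3, Oasl1 and Slfn5, met the rule in unstimulated cells alone.

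In stimulated cells alone 14 members met the rule: Dhx58, Eif2ak2, Ifit1bl1, Parp9, Phf11b, Rtp4, Samhd1, Slfn8, Sp100, Stat2, Trim30a, Usp18, Xaf1 and Zbp1. A further 18 met it in neither state. By counting error alone, 42 members were lower in Yap KO unstimulated cells and 45 in Yap KO stimulated cells, against 20.3% and 23.1% of all genes. Intervals that span 0 were found for Epsti1 and Tor3a in unstimulated cells and for Oas1g and Slfn5 in stimulated cells.

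**Figure D3:**
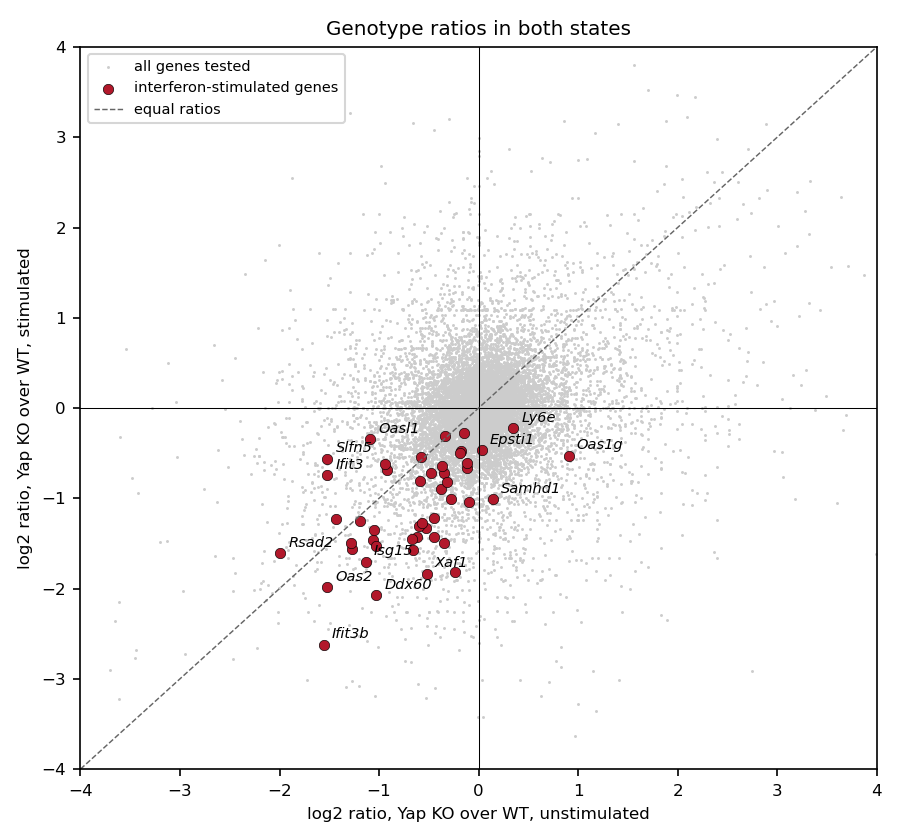
Log2 ratio of Yap KO over WT level in unstimulated cells (horizontal axis) and stimulated cells (vertical axis), for all genes tested (grey, of which 22 fall outside the axes) and the 47 interferon-stimulated genes (red). All 47 red points lie below 0 on the vertical axis and 43 lie below 0 on the horizontal axis, with Oas1g, Ly6e, Samhd1 and Epsti1 to the right of 0.

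Taken over both states, the lowest genotype ratios were those of Ifit3b, Rsad2, Oas2, Ddx60 and Isg15. Before stimulation the Rsad2 level was 64.3 CPM in WT and 16.1 in Yap KO cells, a log2 ratio of -1.99 with an interval from -2.16 to -1.84. After stimulation it was 5.88 and 1.87 CPM, a log2 ratio of -1.61 (-2.24 to -1.11). Rsad2 had the lowest unstimulated ratio of the 47 members.

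For Oas2 the WT and Yap KO levels were 142 and 49.5 CPM unstimulated (log2 ratio -1.52), and 2.94 and 0.674 CPM stimulated (-1.99, interval -3.11 to -1.24). Ddx60 stood at 119 and 58.0 CPM (-1.03) and at 3.77 and 0.830 CPM (-2.07, interval -3.06 to -1.40). Isg15 stood at 41.4 and 18.8 CPM (-1.14) and at 35.5 and 10.8 CPM (-1.70, interval -1.94 to -1.49). Of these, Isg15 has the most stimulated reads and the narrowest interval.

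Ifit3b had 1124 and 432 unstimulated reads (log2 ratio -1.56) and 16 and 1 stimulated reads (-2.62, interval -9.31 to -1.23). Summed with Ifit3, which shares much of its sequence, the log2 ratio was -1.53 unstimulated and -1.02 stimulated, with an interval from -1.58 to -0.47 in stimulated cells. The single-gene value for stimulated cells was thus lower than that of the pair.

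By role, the lowest unstimulated median log2 ratio was that of the IFIT family (-1.43), followed by the antiviral enzymes (-0.97), the ISG15 group (-0.76), the oligoadenylate synthetases (-0.72) and the sensors (-0.60). The others stood between -0.38 and -0.19. In stimulated cells the lowest medians were those of the sensors (-1.46), the antiviral enzymes (-1.32) and the IFIT family (-1.23). The highest were those of the oligoadenylate synthetases (-0.71) and the Parp9 group (-0.72). Every gene of 5 role groups was lower in Yap KO cells in both states, namely the 6 sensors, the 5 IFIT genes, the 4 genes of the ISG15 group, the 3 of the Parp9 group and the 5 signalling and nuclear regulators.

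The 4 members with a ratio above 0 in unstimulated cells were Oas1g, Ly6e, Samhd1 and Epsti1. The WT and Yap KO levels of Ly6e were 1124 and 1427 CPM unstimulated (log2 ratio 0.35, interval 0.32 to 0.37), and 414 and 355 CPM stimulated (-0.22, -0.27 to -0.18). Samhd1 had a ratio of 0.14 (0.09 to 0.19) unstimulated and -1.01 (-1.08 to -0.94) stimulated. Epsti1 had 0.03 (-0.01 to 0.08) and -0.47 (-0.69 to -0.25). These 3 genes are among the members with the most reads, so the counting intervals are narrow.

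Oas1g had a ratio of 0.90 (0.10 to 1.94) unstimulated and -0.53 (-2.10 to 0.76) stimulated, on 8 to 36 reads per library. Summed with Oas1a the log2 ratio was -0.31 in both states. Bst2, the member that rose with stimulation, had ratios of -0.15 (-0.25 to -0.04) and -0.28 (-0.36 to -0.19).

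In 8 members both Yap KO libraries lay below both WT libraries, against 5.41% of all genes. They were Eif2ak2, Ifi27l2a, Ifi35, Isg15, Oasl1, Stat2, Trim30a and Usp18. Their stimulation ratios in WT cells ran from -1.09 for Oasl1 to 1.12 for Eif2ak2 on the log2 scale. Ifi27l2a, for example, had WT levels of 167 CPM before and 98.7 CPM after stimulation, and Yap KO levels of 68.7 and 35.0 CPM.

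Across the 47 members the genotype ratios of the unstimulated and stimulated pairs had a Pearson r of 0.501 and a Spearman rho of 0.528, again a description across genes. The scatter of genotype ratios shows where the states part. Rsad2, Ifit3, Oasl1 and Slfn5 were nearer to WT in stimulated cells than in unstimulated cells, and Sp100, Samhd1, Eif2ak2 and Ifit1bl1 were near WT unstimulated and at least 2-fold lower stimulated. Sp100 had log2 ratios of -0.09 and -1.04, Eif2ak2 -0.34 and -1.49, and Ifit1bl1 -0.23 and -1.82.

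The third comparison set the stimulation ratio of Yap KO cells against that of WT cells, which is the same quantity as the stimulated genotype ratio minus the unstimulated one. The ratio was lower in Yap KO cells in 38 of 47 members, against 54.7% of all genes, with a median difference of -0.50 on the log2 scale beside -0.05 over all genes. The difference was -1 or lower in 7 members, against 7.61% of all genes. These were Ddx60 (-1.04), Eif2ak2 (-1.15), Ifit1bl1 (-1.58), Ifit3b (-1.06), Oas1g (-1.43), Samhd1 (-1.15) and Xaf1 (-1.31). No member had a difference of 1 or more, against 5.38% of all genes.

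Of the 7, Eif2ak2, Samhd1 and Xaf1 have at least 163 reads in each library, whereas the others had 6, 8, 16 or 1 reads in Yap KO stimulated cells. The 9 members whose ratio was higher in Yap KO cells were Herc6, Ifih1, Ifit1, Ifit3, Oas1a, Oasl1, Rnf213, Rsad2 and Slfn5. The highest difference among them was that of Slfn5 (0.96). None of these differences was tested, since each cell of the design has 1 library.

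Members with and without a promoter core had similar median genotype ratios before stimulation. The 21 members with an ISRE core had median genotype log2 ratios of -0.53 unstimulated and -1.23 stimulated, and the 15 without it -0.52 and -0.81. At least 2-fold lower levels in unstimulated Yap KO cells were found for 8 of the 21 and 4 of the 15, against 3.26% of all genes. In stimulated Yap KO cells they were found for 12 of the 21 and 6 of the 15, against 4.42% of all genes. Isg15, Ifit1, Ifit3 and Ifit3b, whose stretches are printed above with 3 cores each, had unstimulated ratios between -1.56 and -1.14. Bst2, with 2 cores, had -0.15, and Cmpk2, with none in its window, had -1.03. The other members with at least 2 cores in a single window were spread widely. They were Slfn5 (-1.52), Ddx60 (-1.03), Ifih1 (-0.58), Oas3 (-0.38), Eif2ak2 (-0.34), Oas1a (-0.34), Ifit1bl1 (-0.23) and Oas1g (0.90).

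Genes upstream of the members give the rest of the pathway. Beside the counts of genes that fell or rose in the lists below, 32.5% of all genes tested were called lower and 32.1% higher. The 17 type I ligand genes listed, Ifne and Ifnk included, had 7 reads in all in each unstimulated library, and 120 and 30 in the stimulated ones. The stimulated sum was 3.78-fold higher in WT than in Yap KO cells, with a counting interval from 2.52 to 5.84. In stimulated WT cells most of these reads came from Ifna4, an interferon alpha gene, with 0, 0, 72 and 12 reads in the order of libraries used above. In stimulated Yap KO cells Ifna4 gave 12 of the 30 reads.

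Ifna4 passed the test and rose, being at least 26.9-fold higher in stimulated than in unstimulated WT cells, and in Yap KO cells at least 5.38-fold higher, against a floor of 3 counts per library. Its stimulated count was 5.67-fold higher in WT than in Yap KO cells (interval 3.06 to 11.5). Ifna2 had 0, 6, 17 and 10 reads and Ifna1 had 1, 0, 24 and 8. Ifna1 shares 88.3% of its 31-base words with other genes, most of all with Ifna5, so reads within this family are uncertain. Ifng shares 22.6% and Ly6a 31.9% with other annotated genes. Ifnb1, the interferon beta gene, had 0 reads in all 4 libraries.

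Ifng, the type II interferon gene, had 114 (WT) and 203 (Yap KO) reads unstimulated, and 2779 (WT) and 17983 (Yap KO) reads stimulated. It rose (log2 change 5.93 ± 0.43, adjusted p = 1.73e-06), and its Yap KO over WT ratios were 0.64 and 2.77, opposite in sign to those of the members in stimulated cells.

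Of 6 receptor genes 5 were tested and all 5 fell. Ifnar1 had 4387, 5991, 2671 and 2011 reads (log2 change -0.85 ± 0.16) and Ifnar2 2237, 3223, 641 and 553 reads (-1.88 ± 0.16). Both had genotype ratios above 0 unstimulated (0.27 and 0.35) and below 0 stimulated (-0.33 and -0.13). Ifngr1, a chain of the interferon gamma receptor, had 6105, 12968, 1798 and 1970 reads. Ifngr2, the other chain of that receptor, named after its values were seen, had 741, 573, 400 and 203 reads and was the receptor gene with a ratio below 0 in both states (-0.55 and -0.89).

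Of 11 kinases and transcription factors 8 fell and 2 rose. Jak1, the kinase shared by both receptors, had 47348, 57747, 7952 and 7285 reads (log2 change -2.48 ± 0.13), with genotype ratios of 0.11 and -0.04. Irf9, the DNA-binding subunit of ISGF3, had 4239, 4530, 1998 and 1279 reads (-1.16 ± 0.15), with genotype ratios of -0.09 and -0.56. Both genes lay near WT in unstimulated Yap KO cells.

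Irf7, the factor that amplifies interferon alpha transcription and is itself induced by interferon, had 8533, 5177, 385 and 87 reads (log2 change -4.80 ± 0.25). Its genotype ratios of -0.90 and -2.04 lay within the range of the members. Irf1 had 11088, 12955, 5208 and 3322 reads and fell by 1.23 ± 0.16. The pair that rose was Irf8 (368, 868, 10895 and 10406 reads) and Irf5 (481, 553, 1078 and 1271 reads), neither of which was lower in Yap KO cells.

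**Figure D4:**
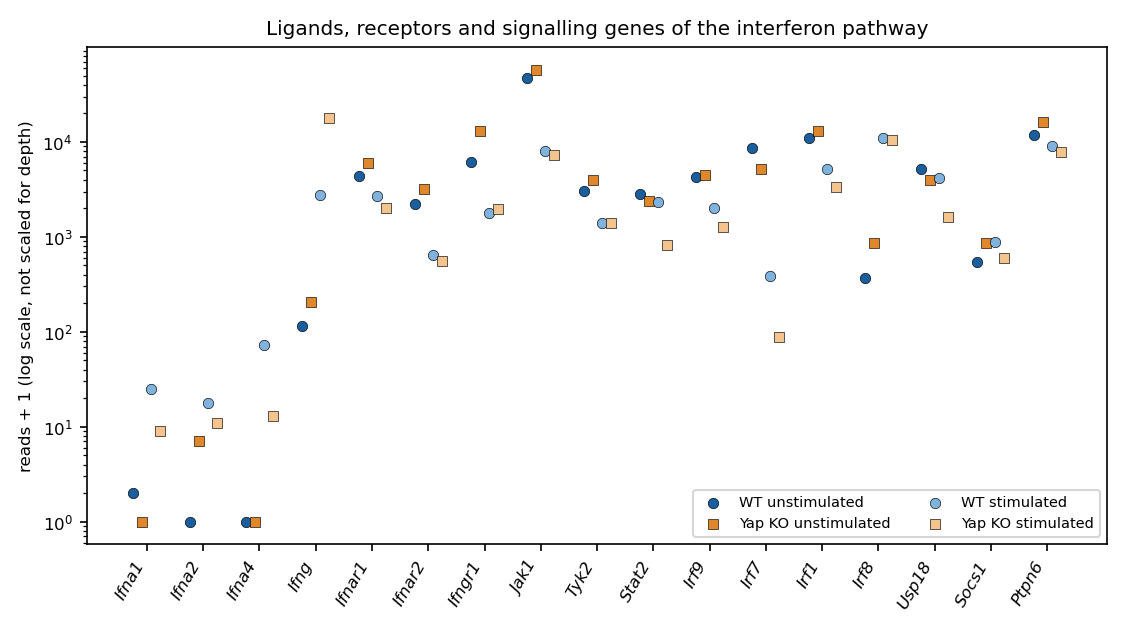
Reads plus 1, on a log axis and not scaled for depth, of selected ligand, receptor, kinase, factor and inhibitor genes in the 4 libraries (circles WT, squares Yap KO, dark unstimulated, pale stimulated). Ifna4 goes from 0 to 72 reads in WT and to 12 in Yap KO cells, Ifng reaches 17983 reads in Yap KO stimulated cells, and Irf7 falls to 385 and 87 reads.

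Of 6 inhibitors of interferon signalling 3 fell and 1 rose. Ptpn6, the phosphatase SHP-1, had 11816, 16324, 9000 and 7740 reads and fell by 0.44 ± 0.14, Socs3 fell by 2.07 ± 0.19, and Ptpn2 rose by 0.59 ± 0.13. Of 13 sensors and adaptors that lead to interferon production 10 were tested, and 7 fell and 1 rose. Ikbke, a kinase that activates interferon regulatory factors, fell by 3.14 ± 0.14, Tmem173, which encodes STING, fell by 0.93 ± 0.13, and Cgas, the DNA sensor in front of STING, rose by 1.04 ± 0.19. The genotype medians of the 10 were 0.02 unstimulated and 0.07 stimulated. Of the 10, 1 was lower in Yap KO cells in both states, Tlr7, named after its values were seen. It had 677, 333, 106 and 46 reads and genotype ratios of -1.20 and -1.09.

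A further 43 interferon-induced genes outside the 47 were listed, of which 41 were tested. Of the 41, 24 fell and 2 rose, against 32.5% and 32.1% of all genes. The median genotype ratios of the 41 were -0.21 unstimulated and -0.58 stimulated, nearer to 0 than those of the 47 members. Lower levels in Yap KO cells in both states were found for 27, against 26.0% of all genes. At least 2-fold lower levels in Yap KO were found for 2 of the 41 unstimulated and 8 stimulated, against 3.26% and 4.42% of all genes. Shisa5, the highest of them, had 52666, 52923, 10793 and 7953 reads (log2 change -2.21 ± 0.13), and Tap1, a peptide transporter for antigen presentation, had 8649, 10969, 8832 and 6108 reads and did not pass the test. Ly6a, which encodes Sca-1, rose (1.04 ± 0.20), as did Ifi30 (2.25 ± 0.24). Mx2, a relative of Mx1, had genotype ratios of -1.64 and -1.40 (568, 205, 190 and 67 reads), and was picked for mention after its values were seen.

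Markers of cell types were read beside these results, as summed CPM in the order of libraries used above for reads. The 7 T cell markers summed to 4290, 4629, 1850 and 1656, and Cd8a with Cd8b1 to 2153, 2297, 605 and 521. Of the T cell markers 6 fell with stimulation and Cd5 rose, and both CD8 genes fell. The genotype medians of these lists lay between -0.21 and 0.08. Of their genes 1, Cd2, was at least 2-fold lower in Yap KO cells, in the stimulated state (log2 ratio -1.13, interval -1.21 to -1.05). None was at least 2-fold higher in either state. The 7 plasmacytoid dendritic cell markers summed to 140, 60.4, 13.0 and 28.6 CPM. In the unstimulated libraries most of that sum was Ccr9 (129 and 35.2 CPM), which T cells also express, and in the stimulated ones most was Runx2 (7.94 and 24.4 CPM). Siglech, a defining marker, had 9, 19, 0 and 0 reads. The 8 monocyte and macrophage markers summed to 23.0, 27.4, 14.9 and 21.5 CPM, with 4 of 8 at 0 in each stimulated library.

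The 6 conventional dendritic cell markers summed to 14.8, 38.1, 15.2 and 32.6 CPM, the 6 B cell markers to 30.8, 47.8, 10.3 and 22.6 CPM and the 5 NK cell markers to 158, 264, 121 and 208 CPM. The sums of these 3 lists, and that of the monocyte and macrophage list, were higher in Yap KO than in WT cells in both states. This is the direction opposite to that of the members. Almost all of the NK cell sum was Eomes (51.7, 115, 54.6 and 71.7 CPM) and Prf1 (104, 143, 66.6 and 137 CPM). Ncr1 had 2, 15, 0 and 1 reads, Klra8 had 2, 62, 0 and 3, and Klrb1c had 50, 75, 1 and 0. Plasma cell markers summed to 114, 73.4, 6.62 and 7.57 CPM, and the stromal and endothelial list, almost all Pecam1, to 158, 136, 11.8 and 10.7 CPM. The neutrophil list summed to 4.24, 1.31, 0.343 and 0 CPM and the erythroid list to 3.76, 2.16, 0.686 and 0.415 CPM. The stromal and endothelial, neutrophil and erythroid sums were lower in Yap KO than in WT cells in both states, the direction of the members. The part of these cells in the members' levels was not tested.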

How the data were processed

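RNA-seq read counts of 4 libraries were used, as tables of raw counts per gene that the authors deposited. The 5 summary entries at the end of each table, which hold reads in no gene, ambiguous and unaligned reads, were left out. Reads were placed on mm9, per the submitters' processing notes, and the aligner, the annotation and the strand setting were not given in the sources used here. Coordinates come from GENCODE M21 and RefSeq on GRCm38. Reads in genes made up 35.6 to 39.7% of all entries. Reads with more than 1 alignment were not counted, so members with near-identical copies lose reads.

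Genes were kept with edgeR 4.0.16 filterByExpr by state (minimum count 10) and scaled with TMM (factors 0.968 to 1.04). The state was tested by quasi-likelihood F test in edgeR, with an additive genotype term (1 residual and 8.45 prior degrees of freedom), adjusted over all 15394 genes, after the script was tested on simulated data. DESeq2 1.42.0 was an alternative. Log2 ratios used a prior count of 2. Genotype ratios have no test, and their exact intervals (95%) cover counting error only. Since replicates are lacking, the error behind the p-values is the difference between the genotypes' responses, moderated with values from all genes. Each standard error is the size of the coefficient divided by the square root of F, so it rests on the same moderated error. The p-values and standard errors do not cover variation between animals or cultures. The members, the lists and the rule for named genes (in each role the 2 highest by CPM, members with a direction unlike most, and the 5 lowest genotype ratios) were chosen with earlier results of these data known. The result of 1 listed pathway gene is not reported here.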

Additional observations from a re-analysis of the deposited data

Results flagged for a closer look

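Stimulation moved the measured level of 2 members in opposite directions in the genotypes, a difference that was not tested because each group has 1 library. Eif2ak2 had a log2 ratio, stimulated over unstimulated, of 1.12 in WT and -0.033 in Yap KO cells, and the counting interval in Yap KO spans 0 (-0.20 to 0.14). Ifi35 had 0.070 in WT, where the interval spans 0 (-0.02 to 0.16), and -0.48 in Yap KO cells. Both genes have exons opposite another gene.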

How the results depend on the processing

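No paired analysis was possible because the groups share only the replicate number 1, with 1 library each. The additive genotype term of the state test does set the libraries of a genotype beside each other. For the same reason no replicate could be left out. The count of 42 members called lower ran from 34 with the genotype left out of the model to 43 without composition factors or without the filter, and was 41 with DESeq2's Wald test. Without the filter on low counts 2 members were called higher, since Eif2ak2 joined Bst2. At 1.5-fold, 20 members in place of 12 were lower in Yap KO cells in both states. Without genes whose exons lie opposite another gene, which leaves 37 members, the median log2 stimulation ratios became -1.99 in WT and -2.41 in Yap KO cells, and the stimulated genotype median -1.22. Of the 6 counts and 4 medians recomputed, the remaining values stayed within 1.5 times (counts) or 0.1 (medians) of those in the report. Counts of the order of levels and of the third comparison, and medians by role, list and promoter core, were not recomputed. Low counts limit the stimulated ratios, since 9 and 14 members had under 100 reads there.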
